A study of Oryza sativa with 8 samples.

Results

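Kaurene oxidases and kaurene synthase-like enzymes make and oxidise the ring-shaped diterpenes from which rice builds gibberellins and antimicrobial phytoalexins. The genes described here are OsKO2, OsKO5 and OsKSL7, which were selected on their measured genotype differences in these same arrays, and every other rice gene with OsKO, KO, OsKSL or KSL followed by digits among its names. The rule found 11 genes, 4 of the OsKO kind and 7 of the OsKSL kind. Of these, 7 genes had a probe set paired with them alone, which gave 9 probe sets of the 57194 tested. OsKO1, OsKSL2, OsKSL3 and OsKSL6 are not analysed here. OsKO2 (LOC4341347) and OsKSL7 (LOC4329724) each had 2 probe sets, and OsKO4 (LOC4341343), OsKO5 (LOC4341340), OsKSL4 (LOC4335094), OsKSL5 (LOC4329728) and OsKSL10 (LOC4352248) had 1 each.

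Transcripts were measured on Affymetrix rice arrays in Hejiang19, a rice cultivar that served as wild type, and in transgenic Hejiang19 plants that overexpress Ghd7, a repressor of flowering in long days. Each genotype was sampled as young leaves of 35-day-old vegetative plants and as developing panicles of 0.1 cm, all from field-grown plants and all 3 hours after dawn, with 2 arrays in each of the 4 groups. The labels name neither the promoter of the transgene nor the number of transgenic lines, and they call the replicates biological without saying how many plants each holds. One label field gives flag leaves at heading for these arrays, and the groups follow the titles and tissue labels. No probe set was paired with Ghd7 in the annotation used here, so the transgene's own level is not analysed here.

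The values are log2 expression values on the authors' scale, and the number of arrays limits their precision. The median SD between the 2 arrays of a group ran from 0.07 to 0.12 over the groups. The median value of a leaf array was 4.49 to 4.53 and that of a panicle array 6.13 to 6.15, so the tissues were on different scales and a level in one is not set against a level in the other. In their place, the percentile of a value among the tested probe sets of its own array is given as a description. The 3 measured leaf markers, each by its brightest probe set, had percentiles of 99.8 or above, rounded, in both leaf groups, while the dimmest OsrbcS probe set lay at 41.8 and 40.4. The 5 young panicle markers (OSH1, LAX1, FZP, RFL and OsMADS58) lay at percentiles 74.3 to 98.9 in wild-type panicles and 55.1 to 99.2 in transgenic panicles, against 2.43 to 46.7 in leaves. These are bulk samples, in which fewer cells of a type and less RNA per cell cannot be told apart.

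As background, gibberellin synthesis starts from a copalyl diphosphate that ent-kaurene synthase turns into ent-kaurene. Ent-kaurene oxidase, a cytochrome P450, then oxidises it on the way to the hormone that drives stem elongation. In rice, OsKO2 is this oxidase, and its loss gives the dwarf d35. The OsKSL genes are relatives of ent-kaurene synthase that make other diterpenes, several of them the starting points of phytocassanes, oryzalexins and momilactones, which are made in response to infection. Several of these genes lie side by side with cytochrome P450 genes of the same pathways in clusters on the chromosomes.

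OsKO2 was read slightly higher in the overexpressor by both of its probe sets. In the brighter one the wild-type leaf values were 6.54 and 6.62 and the transgenic leaf values 7.15 and 7.09. The panicle values were 9.08 and 9.15 in wild type and 9.36 and 9.39 in the overexpressor. The transgenic arrays therefore lay above both wild-type arrays in each tissue, by a log2 difference of 0.54 ± 0.11 (SE) in leaves, which is 1.45-fold, and of 0.26 ± 0.11 in panicles. The dimmer probe set read 5.93 and 6.07 in wild-type leaves and 6.21 and 6.35 in transgenic leaves, and 7.83 and 7.98 against 8.25 and 8.07 in panicles. Its differences were 0.28 ± 0.13 and 0.26 ± 0.13, again with no overlap between genotypes. OsKO2 lay above the array median in all 4 groups, at percentiles 66.0 to 81.9 over both probe sets. Because the gene was picked for its values, these differences carry no test. The suffix of both probe set names marks probes that may bind related transcripts, and the annotation lists OsKO1 among the names of OsKO2 as well as for the adjoining gene, so signal of that copy cannot be told apart.

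OsKO5, a further member of the kaurene oxidase family, had the largest genotype difference among the 9 probe sets, and in the other direction. The wild-type leaf arrays read 5.20 and 5.06 and the transgenic leaf arrays 2.28 and 3.10. Its leaf values differed by -2.44 ± 0.24 on the log2 scale (5.43-fold), a description of a gene picked for that value. The SD of the 2 transgenic replicates was 0.58, and the difference was -2.03 without the first of them and -2.85 without the second. The gene moved from percentile 60.2 in wild-type leaves to 14.1 in transgenic leaves, below the array median. No detection call was used here, so whether the transgenic readings exceed background was not tested. In panicles the values were 3.42 and 3.49 in wild type and 3.61 and 3.98 in the overexpressor, a difference of 0.34 ± 0.24 that was 0.52 without transgenic replicate 1 and 0.15 without replicate 2. These lay at percentiles 2.28 and 7.37 of their arrays, among the dimmest probe sets.

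OsKO4 is the kaurene oxidase relative CYP701A8, a P450 that acts on phytoalexin precursors. It was found by name only and was tested. Its leaf values were 7.32 and 7.42 in wild type and 7.78 and 7.59 in the overexpressor, a difference of 0.31 ± 0.29 that did not pass (limma, adjusted p = 0.666). The panicle values were 5.06 and 5.19 in wild type and 6.09 and 4.97 in the overexpressor, so the genotypes overlapped and the difference of 0.40 ± 0.29 did not pass either (limma, adjusted p = 0.599). Transgenic panicle replicate 1 set this value: without it the difference was -0.16, and without replicate 2 it was 0.96 (limma, adjusted p = 0.0305). The gene lay at percentiles 83.2 and 85.8 in leaves and at 34.9 and 40.3 in panicles.

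**Figure D1:**
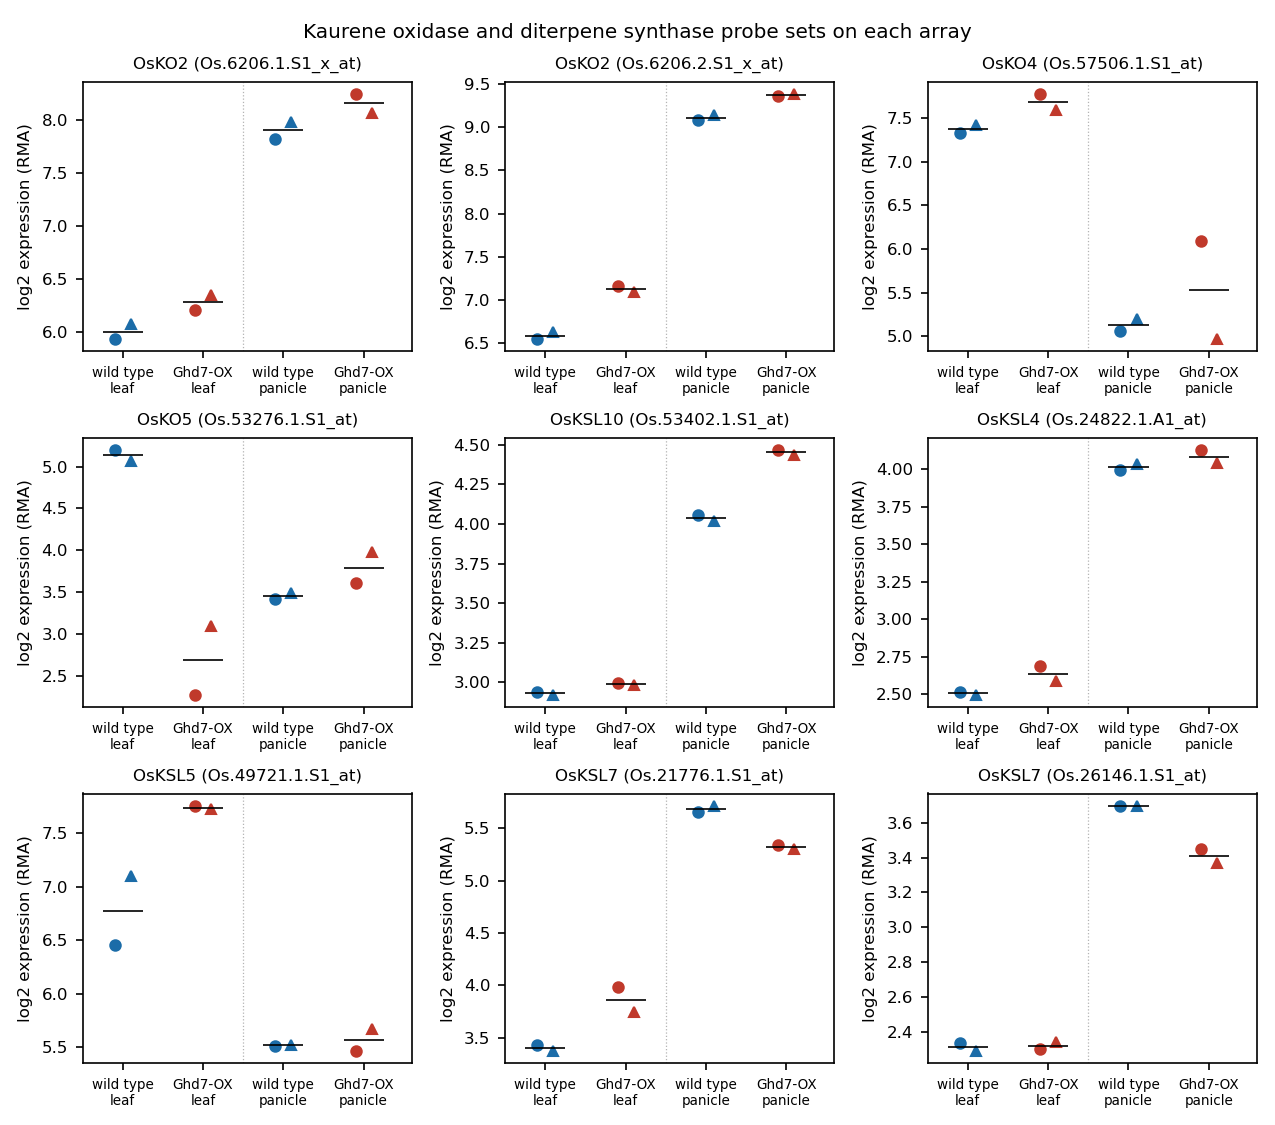
Log2 expression of the 9 probe sets on each of the 8 arrays, 1 panel per probe set with its own vertical axis. Circles are replicate 1 and triangles replicate 2, blue is wild type and red is the Ghd7 overexpressor, and the black lines are group means of 2 arrays. The dotted line separates leaves from panicles, whose scales differ. OsKO5 drops from 5.20 and 5.06 to 2.28 and 3.10 in leaves, and OsKSL5 lies at 7.76 and 7.72 in transgenic leaves.

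Among the diterpene synthases, OsKSL5 was the gene that passed the test. OsKSL5 makes a pimaradiene in the japonica enzyme. Its wild-type leaf values were 6.45 and 7.10 and its transgenic leaf values 7.76 and 7.72. It rose in transgenic leaves by 0.96 ± 0.19 on the log2 scale, 1.95-fold (limma, adjusted p = 0.0242). Both transgenic arrays lay above both wild-type arrays, while the wild-type arrays had an SD of 0.45 and the transgenic arrays one of 0.02. The change was 0.64 without wild-type leaf replicate 1 (adjusted p = 0.0395) and 1.28 without replicate 2 (adjusted p = 0.00507). It did not pass by limma when the 4 leaf arrays were fitted alone (adjusted p = 0.177), without transgenic leaf replicate 1 (0.125) or 2 (0.134), or without either wild-type panicle array (0.0561 for each). In panicles the values were 5.51 and 5.52 against 5.46 and 5.67, a difference of 0.05 ± 0.19 (adjusted p = 0.959). The panicle effect was 0.91 ± 0.27 lower than the leaf effect on the log2 scale, which did not pass (limma, adjusted p = 0.113), except without wild-type leaf replicate 2 (adjusted p = 0.0156). OsKSL5 lay at percentiles 78.5 and 86.1 in leaves and 41.4 and 41.9 in panicles.

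OsKSL7, the ent-cassadiene synthase of phytocassane synthesis, read higher in transgenic leaves and lower in transgenic panicles by its brighter probe set. The leaf values were 3.43 and 3.37 in wild type and 3.98 and 3.75 in the overexpressor, a difference of 0.46 ± 0.12. The panicle values were 5.65 and 5.71 in wild type and 5.34 and 5.30 in the overexpressor, a difference of -0.36 ± 0.12. The genotypes did not overlap in either tissue. The dimmer probe set read 2.33 and 2.29 against 2.30 and 2.34 in leaves, where the genotypes overlapped, and 3.70 and 3.70 against 3.45 and 3.37 in panicles, a difference of -0.29 ± 0.11. The 2 probe sets thus differed on the leaves and shared the panicle direction. Both lay below the array median in all 4 groups, at percentiles 29.3 to 43.9 and 1.47 to 6.87, and whether these readings exceed background was not tested. OsKSL7 was picked for its values and has no test here.

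OsKSL10, which makes a precursor of oryzalexins, and OsKSL4, which makes the precursor of momilactones, were dim throughout. OsKSL10 read 2.94 and 2.92 in wild-type leaves and 3.00 and 2.98 in transgenic leaves, a difference of 0.06 ± 0.11 (limma, adjusted p = 0.854). Its panicle values were 4.06 and 4.02 in wild type and 4.47 and 4.44 in the overexpressor, with close replicates and no overlap. That difference of 0.41 ± 0.11 did not pass over all probe sets (limma, adjusted p = 0.0858), although it did with array weights (adjusted p = 0.0414). Those weights were equal for the 2 arrays of a group and highest, at 1.81, in wild-type panicles. OsKSL4 read 2.52 and 2.49 against 2.69 and 2.59 in leaves, a difference of 0.13 ± 0.11 (adjusted p = 0.619). In panicles it read 3.99 and 4.03 against 4.13 and 4.04, a difference of 0.07 ± 0.11 (adjusted p = 0.854). OsKSL10 lay at percentiles 12.8 to 21.4 and OsKSL4 at 10.7 to 13.2, and a fall from so low a level is hard to measure.

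**Figure D2:**
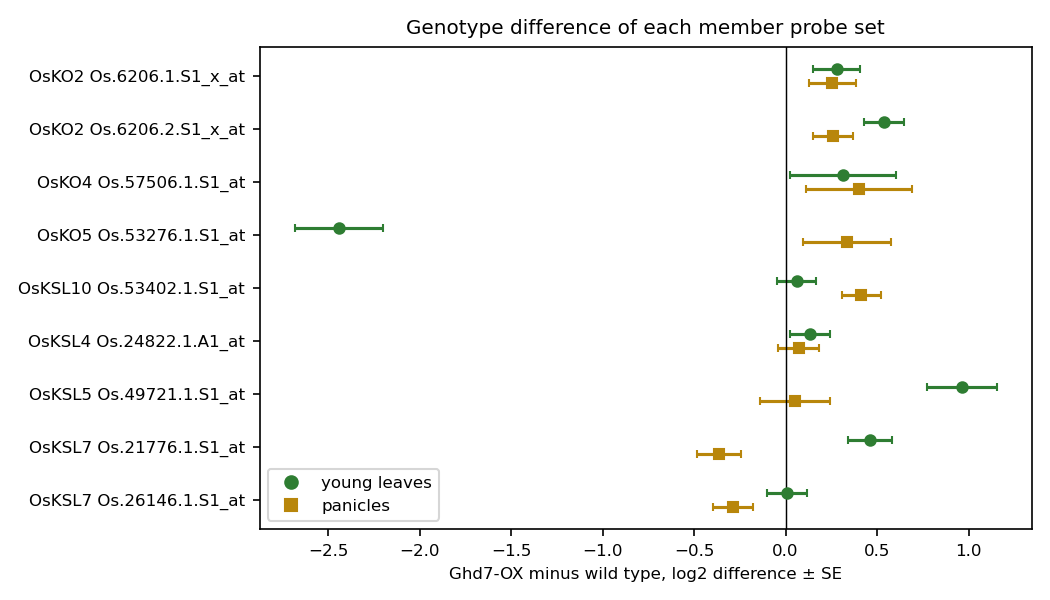
Log2 difference between overexpressor and wild type for each of the 9 probe sets, with bars of 1 SE from the fit over 8 arrays. Green circles are leaves and gold squares are panicles. OsKO5 stands at -2.44 in leaves against 0.34 in panicles, and OsKSL5 at 0.96 in leaves against 0.05 in panicles.

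Over the 4 genes found by name only, 1 rose and 0 fell in leaves by limma, with 1 at an unadjusted p under 0.05. The share of all tested probe sets that passed in leaves was 4.42%, made up of 1.37% that rose and 3.05% that fell. In panicles 0 of the 4 passed by limma and 1, OsKSL10, had an unadjusted p under 0.05, where 2.89% of all probe sets passed, 1.05% higher and 1.84% lower. The difference between the tissue effects passed by limma for 0 of the 4 and had an unadjusted p under 0.05 for 2, OsKSL5 and OsKSL10, while 3.84% of all probe sets passed, 2.1% with a higher and 1.74% with a lower panicle effect. The median log2 difference of the 4 genes was 0.22 in leaves and 0.24 in panicles, beside 0.03 and 0.02 over all probe sets. Over all 9 probe sets, the picked genes included, the transgenic arrays lay above both wild-type arrays for 7 in leaves and 5 in panicles. This held for 25.2% and 27.3% of all probe sets. They lay below for 1 in leaves and 2 in panicles, where all probe sets gave 18.3% and 24.0%, and the others overlapped. Since 3 of the 7 genes were picked for their values, nothing is read from these counts. The shares that passed are for adjusted p. The share of all probe sets at an unadjusted p under 0.05 was not counted. Counts at that threshold, here and below, thus have no share beside them.

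The genes differed in where they stood on their arrays. Both OsKO2 probe sets lay above the array median in all 4 groups. OsKO4 and OsKSL5 lay above it in both leaf groups, and OsKO5 in wild-type leaves. The other 4 probe sets, those of OsKSL4, OsKSL7 and OsKSL10, lay below it in all 4 groups. By percentile, all OsKO probe sets, OsKSL5 and the dimmer OsKSL7 probe set stood higher in leaves than in panicles in both genotypes. OsKSL4 and the brighter OsKSL7 probe set stood lower in leaves in both genotypes, and OsKSL10 differed between genotypes in this.

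**Figure D3:**
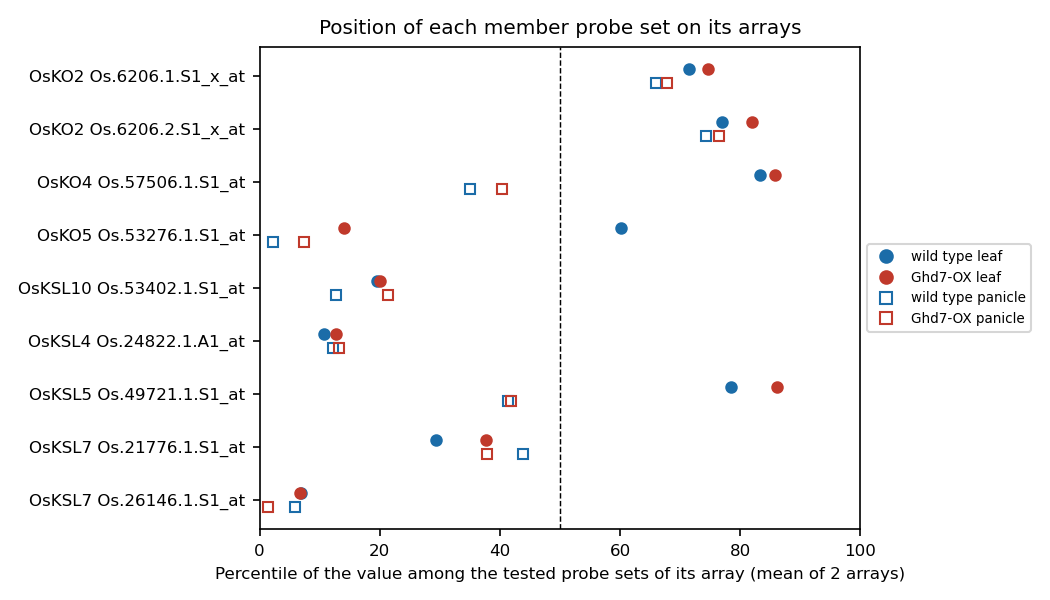
Percentile of each probe set among the 57194 tested probe sets of its array, as the mean of 2 arrays. Filled circles are leaves and open squares are panicles, blue is wild type and red is the overexpressor, and the dashed line marks the array median. OsKO5 moves from 60.2 to 14.1 in leaves, and OsKSL4, OsKSL7 and OsKSL10 stay left of the line.

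The 4 OsKO genes adjoin each other on chromosome 6, in the order OsKO5, OsKO4, OsKO1 and OsKO2, with no other protein-coding gene of the RefSeq table between them. Within this tandem row the leaf differences were -2.44 for OsKO5, 0.31 for OsKO4 and 0.54 and 0.28 for OsKO2. The genes before OsKO5, LOC4341339 and LOC4341338, differed by 0.02 and -0.23 in leaves and by -0.04 and 0.07 in panicles, and neither passed by limma in either tissue or had an unadjusted p under 0.05.

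OsKSL7 and OsKSL5 lie in the diterpenoid cluster of chromosome 2, together with OsKSL6, the copalyl diphosphate synthase gene OsCPS2 and P450 genes. Of 8 measured neighbours within 3 protein-coding genes of either member, with 9 probe sets, 1 probe set fell in leaves, 0 rose and 8 did not pass, while 2 had an unadjusted p under 0.05. Over all probe sets 3.05% fell in leaves and 1.37% rose. In panicles none of the 9 passed by limma, where 2.89% of all probe sets passed, or had an unadjusted p under 0.05. The neighbour that fell was the P450 gene CYP71Z7. It read 7.20 and 7.45 in wild-type leaves and 6.34 and 6.61 in transgenic leaves, a change of -0.85 ± 0.19 (limma, adjusted p = 0.0398). OsKSL5, of the same cluster, rose in the same leaves. The call for CYP71Z7 was lost without either wild-type leaf array (adjusted p = 0.0600 and 0.172), either transgenic leaf array (0.209 and 0.108) or either wild-type panicle array (0.0784 for each), with array weights (0.0744), with quantile normalization of all arrays again (0.0663) and when the leaf arrays were fitted alone (0.114). OsCPS2, which supplies the substrate of both synthases, differed by -0.17 ± 0.16 in leaves (adjusted p = 0.657) and 0.01 ± 0.16 in panicles. In leaves the other neighbours read 0.17 for CYP76M8, 0.06 for CYP71Z6, -0.02 for CYP76M5, -0.53 for LOC4329723 and -0.06 for LOC4329732. CYP76M6 gave 0.17 and -0.79 by its 2 probe sets (adjusted p = 0.504 and 0.0565), which disagree. The CYP76M6 probe set at -0.79 passed with quantile normalization again (adjusted p = 0.0299), equal array medians (0.0477), the filter on dim probe sets (0.0471), a trended robust prior (0.0492) and without wild-type leaf replicate 2 (0.0180).

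**Figure D4:**
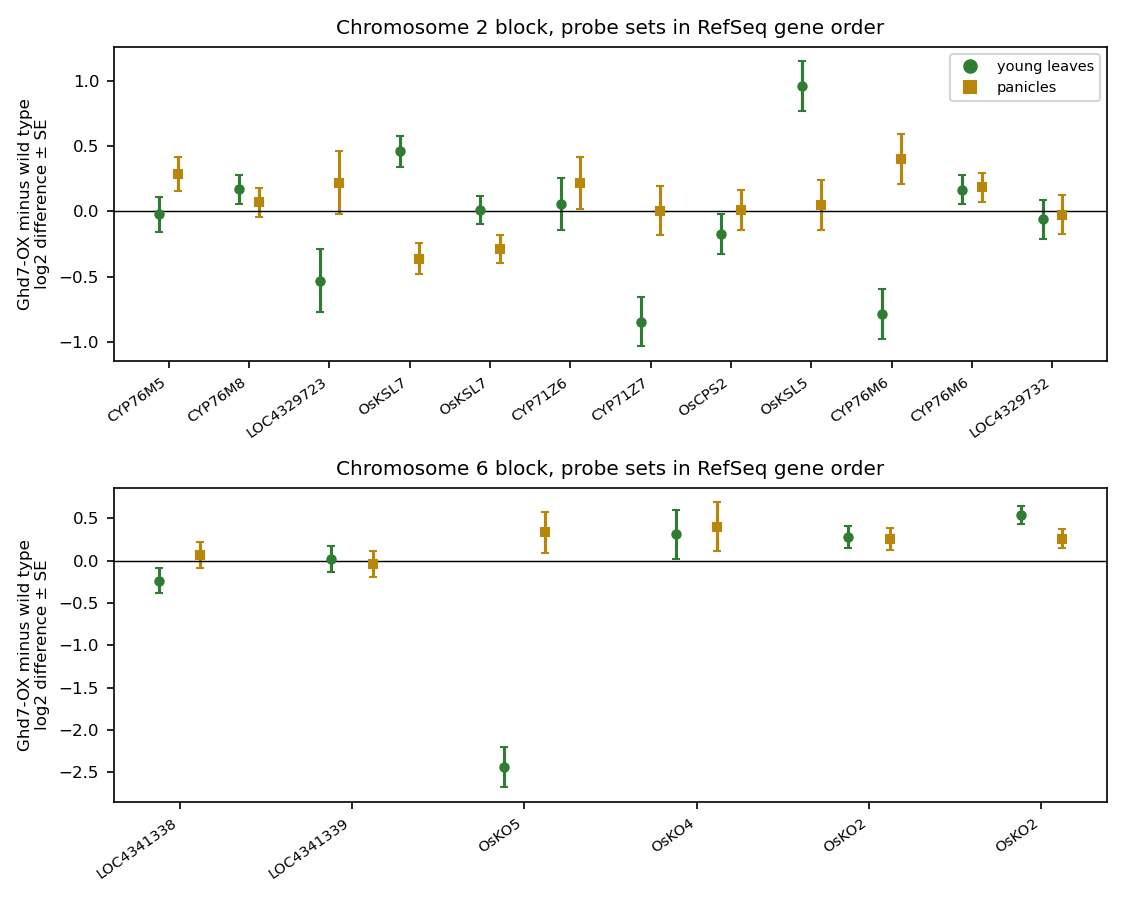
Log2 difference between overexpressor and wild type for measured genes in RefSeq gene order around OsKSL7 and OsKSL5 on chromosome 2 (top) and around the OsKO genes on chromosome 6 (bottom), with bars of 1 SE. Each position is 1 probe set and distances are not to scale. Green circles are leaves and gold squares are panicles. In leaves OsKSL5 stands at 0.96 and CYP71Z7 at -0.85, and OsKO5 at -2.44 beside OsKO4 at 0.31.

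On chromosome 4, OsKSL4 lies among the momilactone genes OsMAS, CYP99A2 and CYP99A3. Of its 4 measured neighbours 0 passed by limma in leaves or panicles, with 0 at an unadjusted p under 0.05 in each. Over all probe sets 4.42% passed in leaves and 2.89% in panicles. Leaf differences were -0.19 for OsMAS, a momilactone A synthase, -0.06 for CYP99A2 and 0.33 for CYP99A3, and the panicle differences of these genes were 0.18, -0.15 and 0.24. LOC4352251, the measured neighbour of OsKSL10 on chromosome 12, differed by 0.07 in leaves and 0.29 in panicles and did not pass.

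The gibberellin pathway around OsKO2 was read in part, from a list of 30 genes, of which 12 were measured. OsGA20ox1, OsGA20ox4, OsGA3ox1, OsGA3ox2, every listed OsGA2ox gene and GID1 were not found by name in the RefSeq table. GID2 matched 2 genes and was left out. Whether the array holds probe sets for these genes was not checked. CYP714B1 and CYP714B2 were found by name but had no probe set paired with them alone. Of the measured genes without OsKO2, 0 of 11 passed by limma in leaves, with 1 at an unadjusted p under 0.05 and a median difference of -0.06. Over all probe sets 4.42% passed in leaves, and the median difference was 0.03. In panicles 0 of 11 passed, with 3 at an unadjusted p under 0.05 and a median of -0.21. Over all probe sets 2.89% passed in panicles, and the median was 0.02. At such shares a count of 0 among so few genes does not show that the pathway was unchanged. In leaves the smallest p-values for synthesis were those of the gibberellin oxidases OsGA20ox3, at 0.47 ± 0.15 (adjusted p = 0.136), and OsGA20ox2, the semidwarf gene, at -0.39 ± 0.24 (adjusted p = 0.469). Wild-type leaf replicate 1 carried the OsGA20ox2 value, which was -0.00923 without it and -0.77 without replicate 2, and in panicles OsGA20ox2 differed by -0.57 ± 0.24 (adjusted p = 0.296). OsGA20ox3 read 6.00 and 5.76 in wild-type leaves and 6.52 and 6.18 in transgenic leaves, without overlap. The step before OsKO2, ent-kaurene synthase OsKS1, differed by 0.03 ± 0.12 in leaves and -0.36 ± 0.12 in panicles (adjusted p = 0.947 and 0.183). The step after it, ent-kaurenoic acid oxidase OsKAO, differed by -0.07 ± 0.17 in leaves and by 0.68 ± 0.17 in panicles (adjusted p = 0.907 and 0.0822). OsKAO read 8.62 and 8.68 in wild-type panicles and 9.48 and 9.19 in transgenic panicles, and it passed with array weights (adjusted p = 0.0278) and without either wild-type leaf array (0.0451 for each). OsCPS1, the first enzyme of the pathway, gave -0.06 ± 0.44 in leaves and -0.43 ± 0.44 in panicles. EUI1, which inactivates gibberellin, was the measured gene of breakdown, at -0.25 ± 0.20 and -0.30 ± 0.20. Of 5 signalling genes 0 passed by limma in either tissue, with 0 at an unadjusted p under 0.05. The DELLA repressor SLR1 differed by 0.00106 in leaves and -0.21 in panicles, its relative SLRL1 by 0.07 and -0.30 (in panicles -0.70, adjusted p = 0.0486, without transgenic replicate 1, and 0.09, adjusted p = 0.923, without replicate 2, which turns the direction), OsSPY by -0.21 in leaves and the G protein subunit D1 by -0.12 in leaves.

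Of 16 listed diterpenoid phytoalexin genes, OsKO4 among them and the OsKSL genes left out, 12 were measured. The others, CYP71Z2, OsMAS2, OsTGAP1 and DPF, were not found by name in the RefSeq table, and whether the array holds them was not checked. In leaves 0 rose, 1 fell and 11 did not pass, where 3.05% of all probe sets fell and 1.37% rose. By 1 probe set per gene, an unadjusted p under 0.05 was found for 2 of the 12. That share over all probe sets was not counted. The median difference over the list was -0.04, beside 0.03 over all probe sets. The gene that fell was CYP71Z7. In panicles 0 of 12 passed by limma, with 0 at an unadjusted p under 0.05 and a median of 0.13. Over all probe sets 2.89% passed in panicles, and the median was 0.02. By 1 probe set per gene, the next smallest p in leaves, named after its values were seen, was that of CYP76M7. CYP76M6 had a smaller one by its dimmer probe set, which the list left out (limma, adjusted p = 0.0565). The RefSeq table places the gene it calls CYP76M7 on another chromosome than the OsKSL7 cluster. Whether this gene is the phytocassane P450 of that name was not tested, and LOC4329723, beside OsKSL7, is unnamed there. The CYP76M7 probe set read 7.06 and 5.79 in wild-type leaves and 4.80 and 5.19 in transgenic leaves, a difference of -1.43 ± 0.36 (limma, adjusted p = 0.0675). The wild-type replicates of CYP76M7 were farther apart than the genotypes' nearest arrays, and the difference was -0.79 without wild-type leaf replicate 1 and -2.06 without replicate 2 (adjusted p = 0.169 and 0.0114). OsCPS4, the copalyl diphosphate synthase that feeds OsKSL4, differed by -0.31 ± 0.22 in leaves and -0.05 ± 0.22 in panicles and did not pass.

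**Figure D5:**
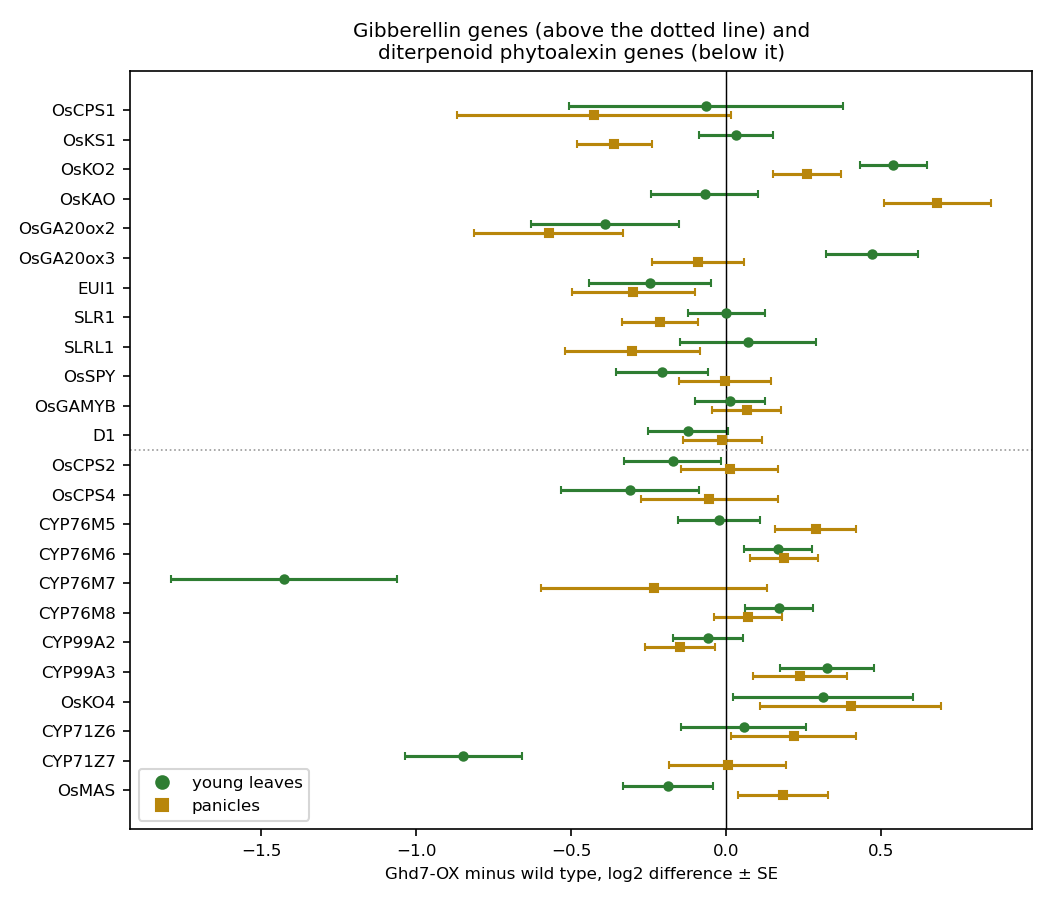
Log2 difference between overexpressor and wild type for the measured gibberellin genes (above the dotted line) and diterpenoid phytoalexin genes (below it), 1 probe set per gene, with bars of 1 SE. Green circles are leaves and gold squares are panicles. OsKO2 stands at 0.54 in leaves, OsKAO at 0.68 in panicles, and CYP71Z7 and CYP76M7 at -0.85 and -1.43 in leaves.

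Markers of green tissue moved with genotype in the panicles in which OsKSL7 read lower and OsKO2 higher. All 3 measured leaf markers of 4 listed fell there, by limma, with summed log2 levels of 23.7 on both wild-type arrays and 19.1 to 20.6 in the overexpressor. Over all probe sets 1.84% fell and 1.05% rose in panicles. The remaining listed marker, LHCP, was left out because its name matched 3 genes. OsrbcS, the Rubisco small subunit, changed by -1.34 (adjusted p = 0.00371), RCABP69 by -1.79 (0.0121) and GOS5 by -0.73 (0.0135). The call was lost without wild-type panicle replicate 2 for OsrbcS (adjusted p = 0.0542), without replicate 1 or 2 for RCABP69 (0.104 and 0.0932), and without wild-type replicate 1 or 2 or transgenic replicate 1 for GOS5 (0.135, 0.100 and 0.0657), which also lost it with a replicate block (0.0516). The other 3 OsrbcS probe sets gave 0.03, -0.64 and 0.23, of which the second passed (adjusted p = 0.0380). That call was lost without any 1 of the panicle arrays (adjusted p = 0.110 to 0.314), without either transgenic leaf array (0.0737 for each), when the panicle arrays were fitted alone (0.0943) and with a replicate block (0.0689). When the panicle arrays were fitted alone, none of the 3 markers passed by limma (adjusted p = 0.0709, 0.125 and 0.0679). Of the young panicle markers, FZP rose by 0.99 and OsMADS58 fell by 3.50 while 3 did not pass, and the FZP call was lost without either wild-type panicle array (adjusted p = 0.156 and 0.143), transgenic panicle replicate 1 (0.0652) or either transgenic leaf array (0.0507 for each), and when the panicle arrays were fitted alone (0.117). RFL, at 0.41 (adjusted p = 0.110), passed with quantile normalization again (0.0407). Their part in the panicle values was not tested. In leaves the leaf markers differed by -0.14 to 0.01, with 0 of 3 past the test by limma and 0 at an unadjusted p under 0.05. Over all probe sets 4.42% passed in leaves. Of the listed root markers, Lsi1 and Lsi2 were measured. Lsi1 lay at percentiles 93.5 and 93.9 in wild-type and transgenic leaves, so it does not mark roots alone here. Lsi2 lay at 21.4 and 18.4. Neither gene passed in either tissue, and Lsi2 gave -0.85 in panicles (limma, adjusted p = 0.0618). Lsi2 passed there with array weights (adjusted p = 0.0230), without either transgenic leaf array (0.0441 for each) and when the panicle arrays were fitted alone (0.0490).

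Named genes whose values ran most like those of the picked genes are given as a description over 8 arrays, each tissue centred on its own mean, and a high correlation there reflects mainly the genotype difference that was used to pick the gene. For OsKO5 they were OsMADS18 (Pearson r = 0.983), PRIN2 (0.980), wsl3 (0.980) and mfs1 (0.977), among 196 candidates. Their leaf differences were -2.02, -3.50, -1.55 and -2.40, and their panicle differences 0.15, 0.11, -0.01 and 0.84. For OsKO2 they were the chitinase gene OsChia4a (0.981), GSK1 (0.971), OsSAP17 (0.966) and OsbZIP37 (0.960), all higher in the overexpressor in each tissue, by 0.37 to 2.63 in leaves and by 0.16 to 0.92 in panicles. For OsKSL7 they were OsPDIL2-3 (0.988), OsSWEET1a (0.978), OsSPS2 (0.972) and OsHsf-21 (0.961). These differed by 0.33 to 0.67 in leaves and by -0.48 to -0.17 in panicles, the same opposite directions as OsKSL7.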

How the data were processed

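The deposited log2 expression values of 57381 probe sets were used, made by the authors with RMA per the submitters' processing notes. The version and settings of RMA, which corrects background, normalizes arrays and summarises each probe set's probes, are not given in the sources used here. No detection call was used. Control probe sets (123 AFFX, 64 reporter) were left out, and 57194 were tested. The platform annotation gave 22436 of these 1 gene (17905 genes), and RefSeq's rice gene table gave current names. Coordinates were used for gene order only.

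limma 3.58.1 (lmFit, eBayes; R 4.3.3) fitted a mean per group to the 8 arrays, which left 4 residual degrees of freedom. P-values are two-sided, corrected over the whole tested table by Benjamini-Hochberg, and passed under 0.05; "rose" and "fell" refer to that test. A shared spread is assumed. Figures used Python 3.11.15, pandas 2.3.3 and matplotlib 3.10.9. The fit was tested on simulated arrays.

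The members, lists and tests were chosen with earlier results of these data known. Members were all named. Other genes of the lists were named where they passed or had the 2 smallest p-values of a list, or lie beside a member, a rule added after the data were seen, and the 4 most alike genes were taken by Pearson r. Lists took the probe set of highest mean per gene. Alternatives were 2 normalizations, a dim-probe filter, single-tissue fits, another variance prior, array weights, a replicate block and leaving out each array. The array weights were equal for the 2 arrays of each group, so they weighted groups and could not single out an array. Replicate 2 minus replicate 1 correlated between groups with r of 0.00663 to 0.0651, so arrays of equal number shared little shift. This cannot tell whether they were harvested or processed in pairs.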

Additional observations from a re-analysis of the deposited data

Results flagged for a closer look

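OsKO5 and the brighter of the 2 OsKSL7 probe sets differed in opposite directions in the 2 tissues, with no overlap between genotypes: the panicle effect minus the leaf effect was 2.78 for OsKO5 and -0.83 for that probe set of OsKSL7, and neither difference was tested, because both genes were picked for such values. Over all probe sets, the transgenic arrays lay above without overlap for 25.2% in leaves and 27.3% in panicles. They lay below for 18.3% and 24.0%, and the share with opposite directions was not counted. The other OsKSL7 probe set overlapped between genotypes in leaves, and the panicle difference of OsKO5 ranged from 0.15 to 0.52 when 1 array was left out. The OsKO5 panicle readings lay at percentiles 2.28 and 7.37 of their arrays. One of the 2 probe sets of CYP76M6, a P450 gene of the chromosome 2 cluster, had effects that differed between tissues by 1.19 ± 0.27 (limma, adjusted p = 0.0475). It read 6.20 and 5.61 in wild-type leaves against 5.03 and 5.21 in transgenic leaves, and 5.07 and 5.04 against 5.31 and 5.61 in panicles. The other probe set gave a difference of 0.02 (adjusted p = 0.972). The CYP76M6 call was lost without any array except wild-type leaf replicate 2, with adjusted p from 0.0630 to 0.177, and with a replicate block (0.0923).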

How the results depend on the processing

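Over all probe sets, the 2529 leaf calls became 325 when the leaf arrays were fitted alone and 1051 to 3292 when 1 array was left out. The 1652 panicle calls became 692 when the panicle arrays were fitted alone, 2807 with array weights, 1097 with a replicate block and 420 to 1645 when 1 array was left out. The 2195 calls for the difference of effects became 630 to 2670 when 1 array was left out. Single-tissue fits and left-out arrays leave fewer residual degrees of freedom. The cause of these changes and of the others was not tested. With the replicate block, whose pairing is not known, leaf calls were 1816 and calls for the difference 1467. OsKSL5 then passed in leaves (limma, adjusted p = 0.0448) while CYP71Z7 did not (0.0634), nor did GOS5 in panicles (0.0516). The only call among the tested OsKO and OsKSL genes, the OsKSL5 rise in leaves, kept its direction under every alternative run. Directions of values without a call did turn. In panicles OsKO4 reached -0.16 and OsKSL5 -0.05, and the dimmer OsKSL7 probe set turned in leaves in 4 alternatives. The difference of tissue effects turned in some alternatives for OsKO4 and the dimmer OsKO2 probe set. The OsKSL5 leaf call was lost in 5 of its 15 alternatives. Among the genes found by name, 3 repeated values gained a call (OsKO4 and OsKSL10 in panicles and the OsKSL5 difference). The other 162 repeated values kept their side of the threshold, but most of them had no call to lose. OsKO5 ranged from -2.85 to -2.03 in leaves, the brighter OsKO2 probe set from 0.50 to 0.62 and the brighter OsKSL7 probe set from 0.34 to 0.58. Low signal limits OsKSL4, OsKSL7, OsKSL10 and the panicle values of OsKO5.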
